A study of Homo sapiens with 6 samples.

Results

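The 10 genes examined belong to the transforming growth factor beta (TGF-beta) family and were measured in SiHa cells, namely the ligands TGFB1, TGFB2 and TGFB3, the receptors TGFBR1 and TGFBR2, the activin subunits INHBA and INHBB, the activin antagonist FST and the bone morphogenetic protein (BMP) ligands BMP2 and BMP4. They were chosen by symbol, and they are 10 of the 58174 genes with a value in the files. SiHa is an established human cell line from a cervical squamous cell carcinoma. The OV-BRCA1 group (3 samples) received the GV230-BRCA1 plasmid and the NC group (3 samples) received the empty GV230 plasmid, both by lipid transfection, and mRNA was sequenced 48 h later. The methods call the 3 samples of a group biological replicates. The transfection was transient in both groups, and the share of cells that took up the plasmid and the promoter on it are not given in the sources used here.

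Ligands of this family are made as precursors, cut by proprotein convertases and secreted as dimers. TGF-beta and activin ligands bring together type II and type I serine/threonine kinase receptors, which phosphorylate SMAD2 and SMAD3, whereas BMP ligands act mainly through SMAD1, SMAD5 and SMAD9. Activin A is a dimer of the INHBA product, and follistatin (FST) binds activins outside the cell and blocks them. In epithelial cells TGF-beta is known both for growth arrest and for the induction of matrix and mesenchymal genes.

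The files give FPKM (fragments per kilobase of transcript, scaled to the mapped fragments of a library), which were added up per gene over its transcripts. The groups were compared with limma on log2(FPKM + 1), a scale on which fold changes of weakly expressed genes come out too small. A gene was called changed at an adjusted p-value below 0.05 (Benjamini-Hochberg over the 16321 genes that reached 0.5 FPKM in 3 or more samples), and a differentially expressed gene (DEG) also had an absolute log2 fold change above 1. Values per sample are given in the order of the sample numbers, 1 to 3, with the OV-BRCA1 group before the NC group. BRCA1 itself stood at 37.1 ± 3.18 FPKM with GV230-BRCA1 and 18.9 ± 3.56 with the empty plasmid (SD, n = 3 each), with every OV-BRCA1 sample above every NC sample. The mitochondrial share of all FPKM was 14.8% to 17.2% in the OV-BRCA1 samples and 21.0% to 23.2% in the NC samples, and its part in the results was assessed only by scaling to nuclear protein-coding genes. Of 8 epithelial markers, KRT8, KRT18, SFN and EPCAM were at 0.5 FPKM or more in all 6 samples. The squamous markers KRT5 and TP63 stayed below 0.5 in all of them. The 8 markers summed to 729 to 783 FPKM in OV-BRCA1 samples and 641 to 676 in NC samples. Mean FPKM was higher after GV230-BRCA1 for EPCAM (6.79 against 2.59), KRT18 (252 against 192) and KRT8 (373 against 326). For SFN it was lower (125 against 134). All 5 fibroblast markers stayed below 0.5 FPKM. The 4 leukocyte markers summed to 31.3 to 37.2 FPKM in OV-BRCA1 samples and 22.2 to 23.9 in NC samples. Of these, CD68 was higher (22.2 to 29.4 against 2.74 to 4.17 FPKM) and CD14 lower (6.65 to 9.04 against 17.8 to 20.4 FPKM) after GV230-BRCA1, CD3E did not exceed 0.233 FPKM, and the leukocyte-defining PTPRC was listed at 0 in every sample. Of 3 endothelial markers, VWF and CDH5 stayed below 0.5 FPKM and PECAM1 lay at 0.629 or above. The part of these markers in the results was not tested.

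For 4 members there are splice forms that the files give separately, and the coding stretch that tells each pair apart is shown here because the transcript values below turn on it. Capitals mark the stretch that is present in one transcript and missing from the other, and lower case marks the 15 neighbouring coding bases. All sequences are 5′ to 3′ on the plus strand, from GENCODE 29 transcripts on GRCh38.
TGFB2-201, exon 2, chr1:218363334-218363417, missing from TGFB2-202: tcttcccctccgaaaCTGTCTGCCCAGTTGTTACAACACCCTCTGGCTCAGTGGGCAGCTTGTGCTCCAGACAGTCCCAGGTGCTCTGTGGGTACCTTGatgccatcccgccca
TGFBR2-202, exon 2, chr3:30623199-30623273, missing from TGFBR2-201: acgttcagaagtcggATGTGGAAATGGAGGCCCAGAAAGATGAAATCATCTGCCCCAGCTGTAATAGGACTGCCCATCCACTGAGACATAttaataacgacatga
TGFBR1-209, start of exon 3, chr9:99132497-99132508, missing from TGFBR1-202: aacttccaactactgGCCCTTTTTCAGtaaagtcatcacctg
FST-201, coding part of exon 6, chr5:53485951-53486030, missing from FST-202: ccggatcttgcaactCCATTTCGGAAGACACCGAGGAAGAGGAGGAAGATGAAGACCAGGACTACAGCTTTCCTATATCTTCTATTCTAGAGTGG
The TGFB2 stretch of 84 bases adds 28 codons, the TGFBR2 stretch of 75 bases adds 25, and the TGFBR1 stretch of 12 bases adds 4. The FST stretch of 80 bases belongs to the 27 codons by which the coding sequence of FST-201 (1032 bases) exceeds that of FST-202 (951 bases).

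Of the 10 members, 8 passed the filter on low values, each of them with at least 0.5 FPKM in all 6 samples. Of these 8, 7 were changed, 6 upward and 1 downward after GV230-BRCA1, where 35.3% of all tested genes were changed (16.4% higher and 18.9% lower). The DEG criterion was met by 2 members, INHBA and FST, where 3.99% of all tested genes met it. In 7 of the 8 the ranges of both groups were separate, against 50.8% of all tested genes. Among their 48 transcripts in the files, 16 passed the same filter and 5 were changed, 4 higher and 1 lower, where 5.47% of all 50925 tested transcripts were changed (2.85% higher and 2.63% lower). The count of 5 went to 2 without OV-BRCA1 replicate 2, NC replicate 1 or NC replicate 2. It went to 3 without OV-BRCA1 replicate 3 or NC replicate 3. With the replicate number as a block in limma it was 0, where 249 of all tested transcripts were changed. Over the 8 tested members the median of the log2 fold changes was 0.43, and it was -0.04 over all tested genes.

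**Figure D1:**
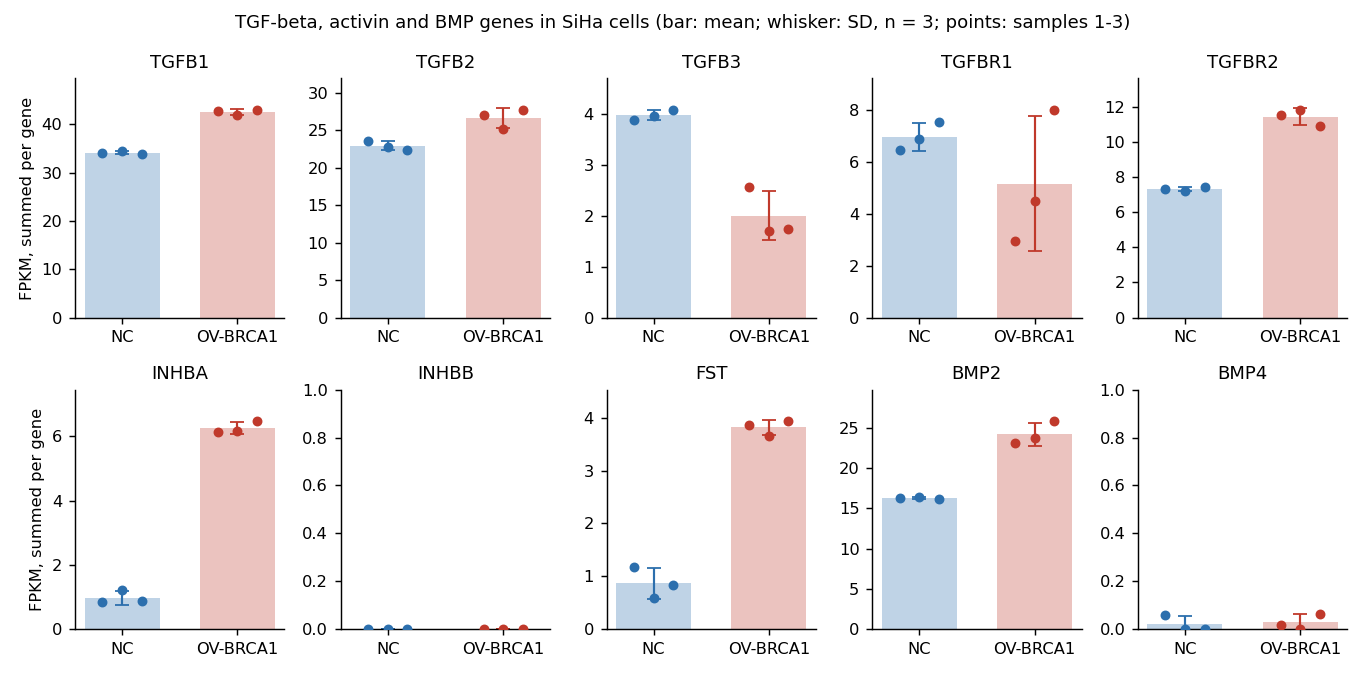
FPKM of the 10 genes, summed over transcripts, with 1 panel per gene, points for the 3 samples of each group, bars for the mean and whiskers for the SD. INHBA and FST stood several times higher in the OV-BRCA1 samples, TGFB3 was lower in all 3 of them, TGFBR1 spread from 2.96 to 8.02 FPKM within the OV-BRCA1 group, and INHBB and BMP4 lay at or near 0.

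INHBA (ENSG00000122641, chromosome 7, 41667168 to 41705834, minus strand) encodes the beta A subunit of activins and inhibins and was the member with the largest fold change. Its FPKM was 6.12, 6.16 and 6.48 with GV230-BRCA1, against 0.823, 1.22 and 0.860 with the empty plasmid. The OV-BRCA1 samples lay within 0.4 FPKM of each other and far above the highest NC sample. The mean rose 6.47-fold, with a log2 fold change of 1.89 (standard error 0.10, limma adjusted p = 7.09e-05), and the gene ranked 219 of 16321 by p-value. Leaving out single samples gave 1.84 to 1.98. In bulk RNA, more cells that express the gene and more RNA per cell cannot be told apart. The annotated antisense gene INHBA-AS1 did not exceed 0.099 FPKM in any sample. The transcript INHBA-201 carried 86.5% of the INHBA FPKM over the 6 samples and rose from 0.665 ± 0.083 to 5.58 ± 0.342 FPKM (SD, n = 3, limma adjusted p = 0.0016 over 50925 tested transcripts).

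INHBB (ENSG00000163083, chromosome 2, 120346143 to 120351808, plus strand), which encodes the beta B subunit, was listed at 0 in all 6 samples. The files give it 1 transcript and hold no read counts, so no limit was computed for its level. The further beta subunits INHBC and INHBE did not exceed 0.0368 and 0.226 FPKM. INHA, the alpha subunit that pairs with beta subunits to form inhibins, was lower in the OV-BRCA1 group (2.23 ± 0.208 against 3.87 ± 0.0791 FPKM, SD, n = 3 each, log2 fold change -0.59, limma adjusted p = 0.00288), and OBSL1, which overlaps it on the opposite strand, went from a mean of 14.3 to 8.11 FPKM.

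FST (ENSG00000134363, chromosome 5, 53480409 to 53487134, plus strand), the secreted activin antagonist, moved in the same direction as INHBA. Its FPKM was 3.86, 3.66 and 3.94 with GV230-BRCA1, against 1.18, 0.591 and 0.830 with the empty plasmid. No OV-BRCA1 sample came near the NC range. The mean rose 4.41-fold, with a log2 fold change of 1.38 (standard error 0.13, limma adjusted p = 5.94e-04). FST-201, the transcript with the longer coding end printed above, stood at 3.19, 2.59 and 2.47 FPKM against 0.590, 0.426 and 0.787 (limma adjusted p = 0.0149 over transcripts). This transcript call was lost when OV-BRCA1 replicate 2 (adjusted p = 0.0523), NC replicate 1 (0.0632) or NC replicate 2 (0.0598) was left out. It was also lost with the replicate number as a block in limma. The shorter FST-202 lay between 0.0348 and 1.06 FPKM with overlapping groups and did not pass the filter.

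Within a sample, the log2 ratio of INHBA to FST was 0.67, 0.75 and 0.72 with GV230-BRCA1, against -0.52, 1.04 and 0.05 with the empty plasmid. The NC values straddle the OV-BRCA1 values, so the groups overlap, and the difference in means was 0.52 (exact two-sided permutation p = 0.4, adjusted p = 0.5 over 5 ratios). It was 0.17 without NC replicate 1 and 0.94 without NC replicate 2. An exact test of 3 samples against 3 cannot go below 0.1.

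**Figure D2:**
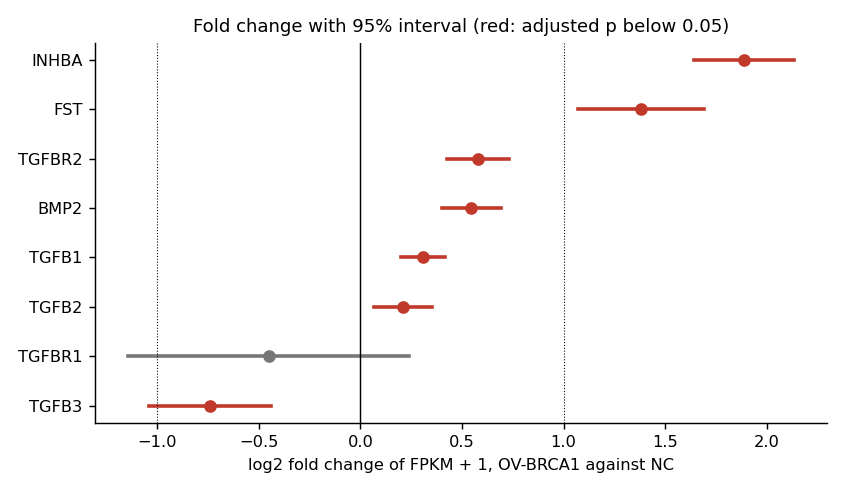
Log2 fold change of FPKM + 1 between the OV-BRCA1 and NC groups for the 8 tested members, with points for the estimate and lines for the 95% interval from limma. Dotted lines mark the fold change of the DEG criterion, which INHBA (1.89) and FST (1.38) passed, and the interval of TGFBR1 spans 0.

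TGFB1 (ENSG00000105329, chromosome 19, 41301587 to 41353911, minus strand) was the most abundant member in both groups. Its FPKM was 42.7, 41.8 and 43.0 with GV230-BRCA1, against 34.0, 34.5 and 33.9 with the empty plasmid. The groups did not overlap and the spread within each was small. The mean rose 1.25-fold (log2 fold change 0.31, standard error 0.04, limma adjusted p = 0.00308). TGFB1-201 held 91.4% of the TGFB1 FPKM. On the opposite strand, HNRNPUL1 overlaps one end of TGFB1 at 131 to 170 FPKM, CCDC97 lies within the gene at up to 18.7 FPKM, and TMEM91 and AC011462.1 overlap the other end. TMEM91 did not exceed 6.49 FPKM, and AC011462.1 was listed at 14.7 FPKM in OV-BRCA1 sample 3 and at no more than 0.00018 FPKM in the other samples. The use of strand in the quantification is not stated, and the part of these genes in the TGFB1 value was not tested.

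TGFB2 (ENSG00000092969, chromosome 1, 218346235 to 218444619, plus strand) stood at 27.1, 25.1 and 27.8 FPKM with GV230-BRCA1, against 23.6, 22.8 and 22.4 FPKM with the empty plasmid. The groups were separate by a small margin. The mean was 1.16-fold higher (log2 fold change 0.21, standard error 0.06, limma adjusted p = 0.0368), the weakest of the changed members. The call was lost when OV-BRCA1 replicate 1 (adjusted p = 0.0926), OV-BRCA1 replicate 3 (0.0983), NC replicate 1 (0.0636), NC replicate 2 (0.0933) or NC replicate 3 (0.101) was left out, with scaling to nuclear protein-coding genes (0.0573), and with the most abundant transcript (0.177). With the replicate number as a block in limma the call was lost as well (adjusted p = 0.0785). The log2 fold change stayed between 0.17 and 0.23 under these settings. The main form was TGFB2-202, which lacks the stretch of 28 codons printed above and held 84.2% of the TGFB2 FPKM. TGFB2-201, which includes it, stood at 2.99 ± 0.302 FPKM with GV230-BRCA1, against 2.97 ± 0.493 with the empty plasmid (SD, n = 3 each), with no difference found (log2 fold change 0.01, limma adjusted p = 0.974). TGFB2-OT1, annotated on the same strand within the last exon of TGFB2, was listed at 26.3 FPKM in OV-BRCA1 sample 2 and at 0.203 to 0.360 in the other samples, and OV-BRCA1 sample 2 was the lowest of its group for TGFB2.

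TGFB3 (ENSG00000119699, chromosome 14, 75958099 to 75982991, minus strand) was the only tested member that was changed downward. Its FPKM was 2.57, 1.71 and 1.75 with GV230-BRCA1, against 3.90, 3.97 and 4.09 with the empty plasmid. Each OV-BRCA1 sample was below each NC sample, and the mean of the OV-BRCA1 group was 0.504 times that of the NC group. The gene fell by 0.74 on the log2 scale (standard error 0.13, limma adjusted p = 0.00579). The sum was divided unevenly over its transcripts. The coding transcript TGFB3-201 stood at 1.59, 0.0721 and 0.241 FPKM against 1.68, 1.79 and 2.20, while TGFB3-202, annotated as a retained intron, stood at 0.0794, 1.19 and 1.32 against 0.637, 0.592 and 0.510. The processed transcript ENST00000556674, with 22.1% of the TGFB3 FPKM, stood at 0.759, 0 and 0 against 1.04, 1.17 and 1.00 (limma adjusted p = 0.145 over transcripts). TGFB3-201 led in OV-BRCA1 sample 1 and in the NC samples, and TGFB3-202 in OV-BRCA1 samples 2 and 3. Without OV-BRCA1 replicate 1, TGFB3-201 (-1.32, limma adjusted p = 0.0355) and ENST00000556674 (-1.05, limma adjusted p = 0.0254) passed the test. With the most abundant transcript in place of the sum, the fall of 0.93 on the log2 scale did not pass the test (limma adjusted p = 0.131). IFT43, which overlaps TGFB3 on the opposite strand, stood at 17.0 to 18.9 FPKM with GV230-BRCA1, against 21.8 to 25.1 with the empty plasmid, and its part in the TGFB3 value was not tested.

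Of the summed FPKM of the 3 TGF-beta ligands, TGFB1 held 59.8% ± 1.00 with GV230-BRCA1, against 55.9% ± 0.553 with the empty plasmid (SD, n = 3 each). TGFB3 held 2.81% ± 0.635 and 6.53% ± 0.226. Both shares were separate between the groups and gave the smallest p that the design allows (exact two-sided permutation p = 0.1, adjusted p = 0.167 over 5 ratios). The share of TGFB2 was 37.4% ± 0.835 and 37.6% ± 0.708 (exact permutation p = 0.9).

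TGFBR2 (ENSG00000163513, chromosome 3, 30606502 to 30694142, plus strand), the type II receptor that binds TGF-beta first, was higher in the OV-BRCA1 group. Its FPKM was 11.5, 11.8 and 10.9 with GV230-BRCA1, against 7.31, 7.23 and 7.43 with the empty plasmid. The groups were clearly apart, with a 1.56-fold rise of the mean (log2 fold change 0.58, standard error 0.06, limma adjusted p = 0.00111). The division over its 2 transcripts did not follow the groups. TGFBR2-202, with the additional 25 codons, held 1.36%, 7.57% and 34.6% of the gene with GV230-BRCA1, against 42.1%, 0.274% and 44.3% with the empty plasmid. With TGFBR2-201 alone in place of the sum, the log2 fold change was 0.82 and did not pass the test (limma adjusted p = 0.0885).

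TGFBR1 (ENSG00000106799, chromosome 9, 99104038 to 99154192, plus strand), the type I receptor kinase that phosphorylates SMAD2 and SMAD3, showed no difference that exceeded the spread of its sum. Its FPKM was 2.96, 4.51 and 8.02 with GV230-BRCA1, against 6.47, 6.88 and 7.55 with the empty plasmid. OV-BRCA1 samples 1 and 2 lay below the NC group, whereas sample 3 lay above it. The log2 fold change was -0.45 with a 95% interval from -1.14 to 0.24 (limma adjusted p = 0.265). Without OV-BRCA1 replicate 3 the log2 fold change was -0.77 and passed the test (limma adjusted p = 0.0240), and without OV-BRCA1 replicate 1 it was -0.17 (limma adjusted p = 0.590).

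The TGFBR1 transcripts differed between the groups far more than the sum. TGFBR1-202 held 30.1%, 10.6% and 18.4% of the gene with GV230-BRCA1, against 100%, 99.9% and 96.2% with the empty plasmid. In FPKM it fell from 6.87 ± 0.399 to 0.949 ± 0.505 (SD, n = 3, log2 fold change -2.05, limma adjusted p = 0.00814 over transcripts). Leaving out single samples gave -2.24 to -1.86, and the call was lost with the replicate number as a block in limma. TGFBR1-209, which differs in its coding sequence by the additional 12 bases printed above, was listed at 1.54, 0.398 and 6.01 FPKM with GV230-BRCA1 and at no more than 0.00108 in the NC samples. In OV-BRCA1 sample 2 the largest part went to another form instead, TGFBR1-201, at 2.79 FPKM against 0 in all other samples. TGFBR1-209 was thus the leading form in OV-BRCA1 samples 1 (52.1%) and 3 (74.9%), and TGFBR1-201 in sample 2 (62.0%). The quantification tool that divided the reads is not given in the sources used here, and its part in these values was not tested. TGFBR1-201 was named after its values had been seen. The log2 ratio of TGFBR1 to TGFBR2 was -1.97, -1.39 and -0.44 against -0.18, -0.07 and 0.02, lower in every OV-BRCA1 sample (exact two-sided permutation p = 0.1, the smallest possible, adjusted p = 0.167 over 5 ratios).

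**Figure D3:**
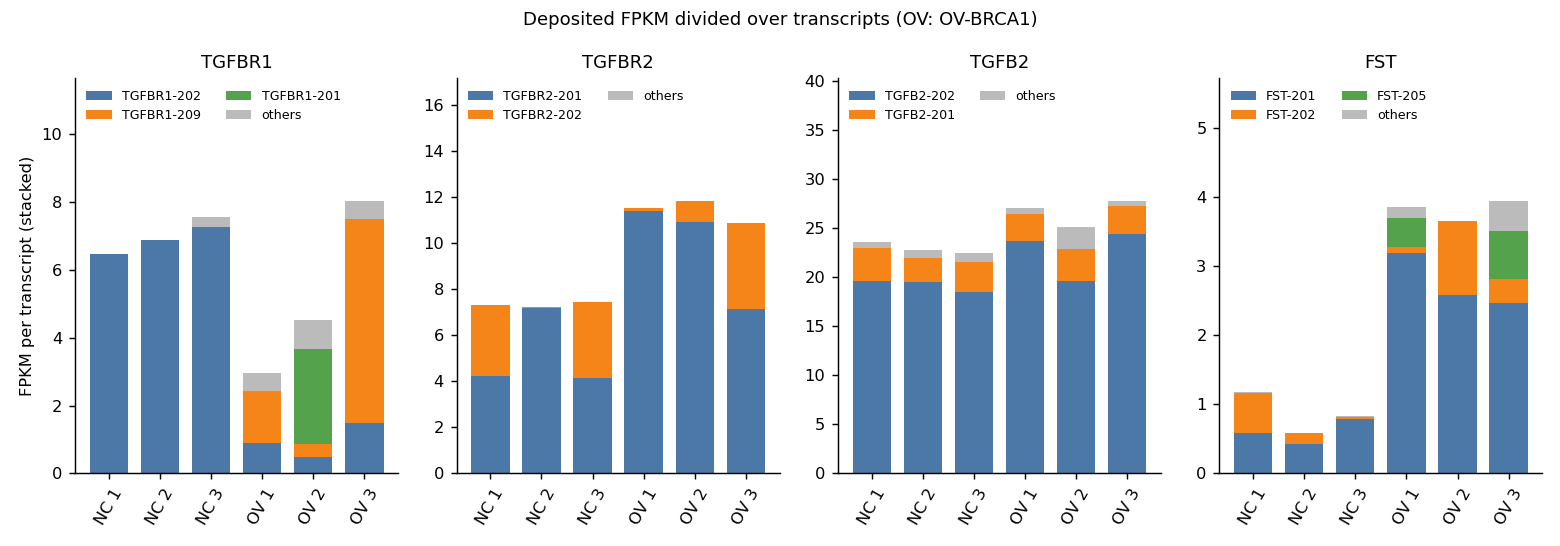
Deposited FPKM of the transcripts of TGFBR1, TGFBR2, TGFB2 and FST in each sample, stacked, with transcripts under 5% of a gene pooled as others. TGFBR1-202 filled nearly all of TGFBR1 in the NC samples and 10.6% to 30.1% of it in the OV-BRCA1 samples, while TGFB2-202 led TGFB2 in all 6.

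BMP2 (ENSG00000125845, chromosome 20, 6767664 to 6780280, plus strand), a ligand of BMP receptors, ranked after TGFB1 and TGFB2 as the next most abundant member in both groups. Its FPKM was 23.2, 23.7 and 25.9 with GV230-BRCA1, against 16.3, 16.4 and 16.2 with the empty plasmid. The groups were far apart compared with the NC spread. The mean rose 1.49-fold (log2 fold change 0.55, standard error 0.06, limma adjusted p = 0.00119). BMP4 (ENSG00000125378, chromosome 14, 53949736 to 53958761, minus strand), its closest relative, stood at 0.0167, 0 and 0.0643 FPKM with GV230-BRCA1, against 0.0578, 0 and 0 with the empty plasmid, which is at or near 0 throughout. No ratio to INHBB or BMP4 was formed because of these zeros.

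Since FPKM is scaled to transcript length, levels can be ordered between genes. In the NC group the order of mean FPKM was TGFB1, TGFB2, BMP2, TGFBR2, TGFBR1, TGFB3, INHBA, FST, BMP4 and INHBB. The ranges of TGFBR2 and TGFBR1 overlapped, as did those of INHBA and FST and those of BMP4 and INHBB. In the OV-BRCA1 group the first 4 were in the same order, and INHBA (6.26 FPKM), TGFBR1 (5.16 FPKM) and FST (3.82 FPKM) followed ahead of TGFB3 (2.01 FPKM). There the ranges of TGFB2 and BMP2 overlapped, and TGFBR1 overlapped both INHBA and FST. INHBA and FST thus stood below TGFB3 in the NC group and above it in the OV-BRCA1 group, with ranges that did not overlap in either group.

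Of 26 other ligands of the family, 19 stayed under the filter on low values, and 9 of these were listed at 0 in all samples. Among the 7 tested, 3 were higher, 1 was lower and 3 did not pass (57.1% changed, against 35.3% of all tested genes, median log2 fold change 0.49). GDF15, a stress-induced ligand, was a DEG and rose from 1.67 ± 0.445 to 5.55 ± 0.404 FPKM (SD, n = 3, log2 fold change 1.31, limma adjusted p = 0.00108). BMP7 rose from 4.86 ± 0.410 to 8.18 ± 0.747 FPKM (limma adjusted p = 0.00323) and AMH, the anti-Müllerian hormone, from 6.95 ± 0.245 to 10.6 ± 0.278 FPKM (limma adjusted p = 0.00141). The fall of INHA is given above. GDF11 did not pass (log2 fold change 0.49, limma adjusted p = 0.133), and without NC replicate 3 its log2 fold change was 0.25 (limma adjusted p = 0.207). With its most abundant transcript alone, BMP7 did not pass either (log2 fold change 0.18, limma adjusted p = 0.418).

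Among the other receptors and co-receptors, 9 of 16 were tested, 3 were higher, none was lower and 6 did not pass (median log2 fold change -0.08). The 33.3% changed is near the 35.3% over all tested genes. RGMA, a membrane-anchored BMP co-receptor, was a DEG and stood at 6.33, 7.73 and 6.99 FPKM with GV230-BRCA1, against 0.742, 0.537 and 0.359 FPKM with the empty plasmid (log2 fold change 2.38, limma adjusted p = 5.93e-05). Its relative RGMB rose from 3.18 ± 0.126 to 4.55 ± 0.236 FPKM (limma adjusted p = 0.00856) and the type II receptor BMPR2 from 5.18 ± 0.326 to 7.15 ± 0.439 (limma adjusted p = 0.0109). By its most abundant transcript alone, BMPR2 did not pass (log2 fold change 0.31 against 0.40, limma adjusted p = 0.0852). The type I receptor BMPR1A (log2 fold change -0.11, limma adjusted p = 0.331) and the co-receptor ENG (-0.13, limma adjusted p = 0.0968) did not pass.

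The SMADs and their intracellular regulators changed in both directions. Of 27 listed, 26 were tested, 6 were higher, 7 were lower and 13 did not pass (13 of 26 changed, against 35.3% of all tested genes, median log2 fold change 0.06), and none was a DEG. With the most abundant transcript in place of the sum, 6 of this list were changed. Of all genes, 3291 of the 15614 tested were changed under that setting. SMAD6, an inhibitory SMAD, fell from 28.2 ± 1.12 to 16.5 ± 0.614 FPKM (SD, n = 3, limma adjusted p = 3.20e-04). SKI, a corepressor of SMAD complexes, fell from 16.3 ± 0.324 to 10.8 ± 0.591 FPKM (limma adjusted p = 0.00134), and BAMBI, a pseudoreceptor, from 19.8 ± 0.613 to 14.0 ± 0.985 FPKM (limma adjusted p = 0.00338). By its most abundant transcript alone, BAMBI did not pass (log2 fold change -0.30 against -0.47, limma adjusted p = 0.0532). TRIM33, a ubiquitin ligase that binds SMADs, rose from 9.18 ± 0.302 to 13.6 ± 0.931 FPKM (limma adjusted p = 0.00259).

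For latency, processing and extracellular antagonists, 18 of 36 genes were tested, of which 7 were higher, 4 were lower and 7 did not pass (61.1% changed, against 35.3% of all tested genes, median log2 fold change -0.01), and none was a DEG. ITGB8, whose integrin releases TGF-beta from its latent complex, rose from 8.97 ± 0.526 to 15.6 ± 0.777 FPKM (SD, n = 3, limma adjusted p = 7.09e-04). CRIM1, a BMP-binding membrane protein, rose from 42.9 ± 0.289 to 64.7 ± 2.28 FPKM (limma adjusted p = 3.38e-04) and BMPER, a secreted BMP binder, from 0.556 ± 0.0524 to 1.34 ± 0.263 (limma adjusted p = 0.0082). BMP1, a protease that cuts procollagen and BMP antagonists and is not a ligand, fell from 19.9 ± 1.74 to 12.4 ± 0.406 FPKM (limma adjusted p = 0.00156). FEZ2 overlaps CRIM1 on the opposite strand and its mean went from 21.4 to 31.5 FPKM.

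**Figure D4:**
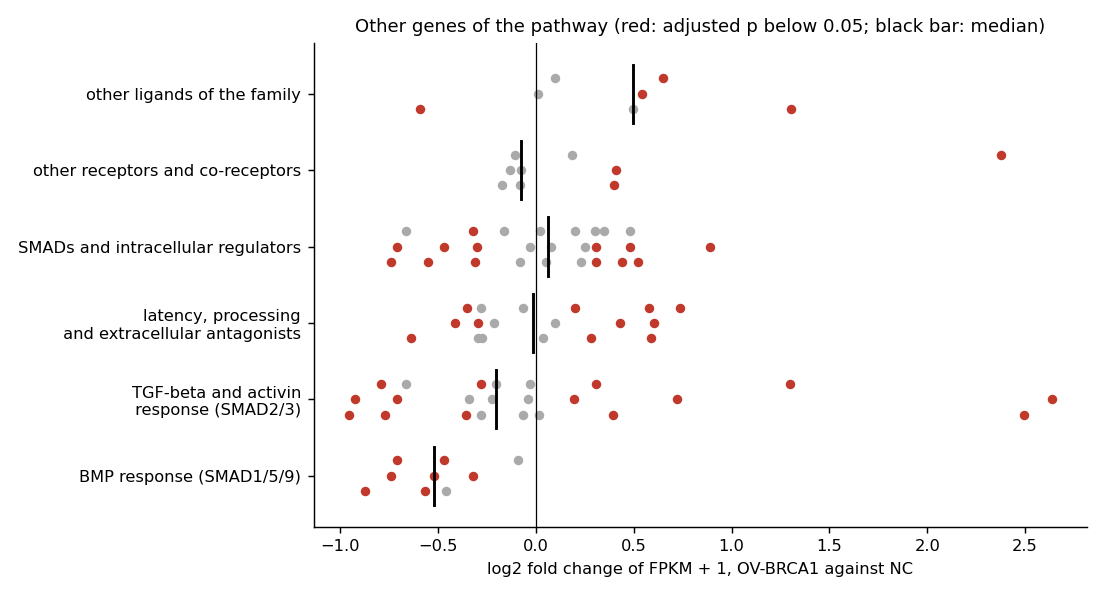
Log2 fold change of FPKM + 1 for the tested genes of 6 lists, 1 point per gene, red where the limma adjusted p-value was below 0.05 and a black bar for the median of the list. The BMP response genes all lay below 0 with a median of -0.52, and the TGF-beta and activin response genes ran from -0.96 to 2.64.

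Genes known to respond to TGF-beta and activin through SMAD2 and SMAD3 moved in both directions in equal number. Of 27 listed, 23 were tested, 7 were higher, 7 were lower and 9 did not pass (60.9% changed, against 35.3% of all tested genes, median log2 fold change -0.20 against -0.04). With the most abundant transcript in place of the sum, 9 of this list were changed. Of all genes, 3291 of the 15614 tested were changed under that setting. The cytokine IL11 was a DEG and stood at 37.8, 35.1 and 36.2 FPKM with GV230-BRCA1, against 4.85, 5.66 and 4.54 FPKM with the empty plasmid (log2 fold change 2.64, limma adjusted p = 8.95e-06). ANGPTL4 was also a DEG and rose from 6.32 ± 0.606 to 17.0 ± 0.230 FPKM (SD, n = 3, limma adjusted p = 1.09e-04). RAB11B-AS1 overlaps it on the opposite strand and went from a mean of 2.85 to 20.3 FPKM. With its most abundant transcript alone, ANGPTL4 did not pass (limma adjusted p = 0.31), although the log2 fold change was 1.146, against 1.30 for the sum. FN1, the matrix protein fibronectin, rose from 25.7 ± 1.09 to 43.1 ± 3.31 FPKM (limma adjusted p = 7.56e-04), and by its most abundant transcript alone the log2 fold change went from 0.72 to 0.48 and did not pass (limma adjusted p = 0.0582).

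The other changed genes of this list were lower. CDKN2B, the cell cycle inhibitor p15, fell from 13.6 ± 0.718 to 6.52 ± 0.271 FPKM (SD, n = 3, limma adjusted p = 2.24e-04). BHLHE40, a transcriptional repressor, fell from 138.8 ± 0.459 to 72.6 ± 1.37 FPKM (limma adjusted p = 2.53e-05), and COL1A1, a chain of type I collagen, from 6.39 ± 0.379 to 3.28 ± 0.270 FPKM (limma adjusted p = 0.00106). SMAD7, the inhibitory SMAD that TGF-beta induces, belongs to this list as well and fell from 10.7 ± 0.626 to 6.18 ± 1.21 FPKM (limma adjusted p = 0.00721). It was named after its values had been seen.

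Of the 6 lists, the BMP response genes had the largest share of changed genes with FPKM summed per gene. Of 13 listed, 9 were tested, 7 were lower, none was higher and 2 did not pass (median log2 fold change -0.52), where 18.9% of all tested genes were lower. ID1, a dominant-negative helix-loop-helix factor, stood at 737, 693 and 695 FPKM with GV230-BRCA1, against 1083, 1017 and 1049 FPKM with the empty plasmid (log2 fold change -0.57, limma adjusted p = 3.05e-04). Its paralog ID3 fell from 794 ± 14.8 to 553 ± 18.9 FPKM (SD, n = 3, limma adjusted p = 3.17e-04). ATOH8, a helix-loop-helix gene downstream of BMP receptors, fell from 19.1 ± 0.955 to 9.96 ± 1.03 FPKM (limma adjusted p = 7.72e-04). SMAD6, SMAD7, SMAD9 and BAMBI made up the rest of the 7 and also stand in the list of SMADs and regulators, so the lists are not independent. BMP2 and BMP7 were thus higher in the same samples in which these genes were lower. With the most abundant transcript in place of the sum, 4 of the BMP response genes were changed. Of all genes, 3291 of the 15614 tested were changed under that setting.

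**Figure D5:**
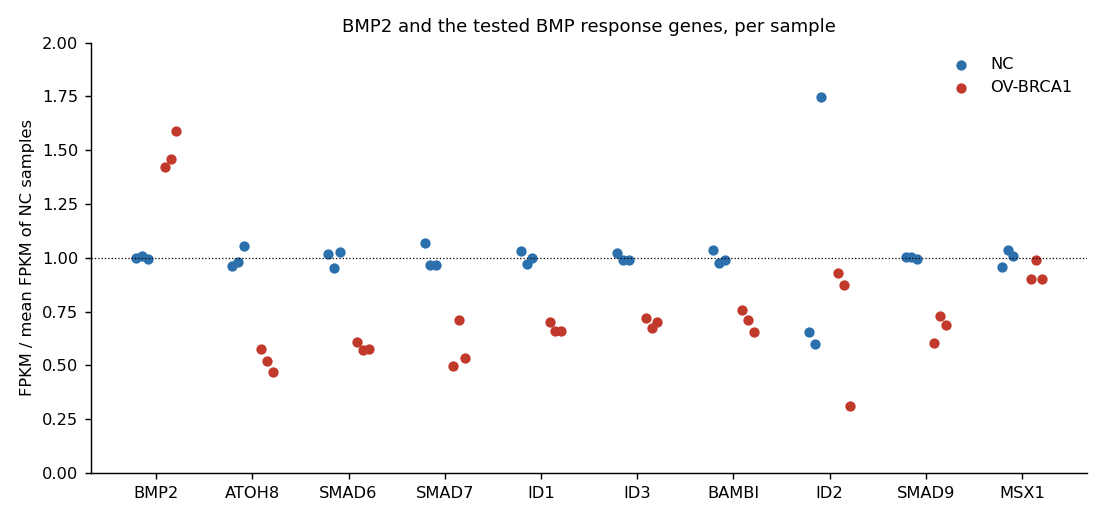
FPKM of BMP2 and of the 9 tested BMP response genes in each sample, divided by the mean of the NC samples of that gene, with 1 point per sample. The 3 OV-BRCA1 samples lay above the NC samples for BMP2 and below them for ATOH8, SMAD6, SMAD7, ID1, ID3, BAMBI and SMAD9, while ID2 and MSX1 overlapped.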

How the data were processed

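mRNA of 6 SiHa samples, 3 OV-BRCA1 and 3 NC, was analysed, grouped by the transfection in the labels and numbered by title. The deposited values are FPKM, made by the authors from quality-filtered mRNA-seq reads. The submitters' processing notes name FastQC, HISAT2 and hg38, whereas the quantification tool, the annotation and the use of strand are not given in the sources used here. The 6 sample files and the series table held identical values for 199167 transcripts, of which 198868 are in GENCODE 29, and 98.6% of these lay at the same position, so its names and GRCh38 coordinates were used.

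FPKM were summed per gene and tested with limma 3.58.1 (R 4.3.3, trend, no robust estimation) on log2(FPKM + 1). DESeq, which the authors used, needs counts and was not applied to FPKM. The authors' list of downregulated DEGs holds genes that were not DEGs here, among them BAMBI, SKIL, BMP1, LTBP3 and THBS1. Of these, SKIL was higher here (log2 fold change 0.31, limma adjusted p = 0.0432). The files hold no counts, and the total reads per sample that the study states were not used here. In low single-transcript genes 32.0% to 40.4% of values fell within 0.1 of a whole fragment under the best-fitting total, so whole reads were not recovered. Ratios within a sample, 5 of 7 planned because 2 held zeros, were compared by exact permutation (scipy 1.17.1). The test was checked on simulated data.

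The members and gene lists were chosen with earlier results of these data known. The lists came from general knowledge and share 10 genes, and 1 of 16 receptor symbols was not matched. Named were all members, BRCA1, each list's DEGs with separate groups and its 4 next genes by adjusted p-value, genes overlapping a member at a level that bears on it, 3 genes overlapping list genes (chosen after their values were seen), and transcripts with at least 10% of a member's FPKM, while 1 gene that the rule names is not reported here. Alternatives were a pseudocount of 0.1, no filter, at least 1 FPKM, the replicate number as a block, 2 scalings, robust estimation, the most abundant transcript, and each sample left out.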

Additional observations from a re-analysis of the deposited data

How the results depend on the processing

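The files hold no counts, so no counting error was computed for values below 1 FPKM, and p-values rest on 3 samples per group. INHBA, FST, TGFB1, BMP2, TGFBR2 and TGFB3 kept direction and call under all alternatives, except TGFB3 and TGFBR2 with the most abundant transcript. Under that setting the changed genes numbered 6 among SMADs and regulators, 9 in the TGF-beta and activin response and 4 in the BMP response, ENG turned to 0.075 on the log2 scale, and 3 members met the DEG criterion, since TGFBR1 joined. Leaving out single samples gave 6 to 7 changed members, 2 to 5 changed member transcripts (5 with all samples), 8 to 10 genes in the latency list (11 with all samples) and, for the TGFB2 share of the TGF-beta ligands, differences of -0.55 to 0.28 percentage points, the sign turning in the absence of OV-BRCA1 replicate 2 or of NC replicate 1 (0.28 in both). Unchanged transcripts turned sign when 1 sample was left out, namely TGFB2-201 without OV-BRCA1 replicate 2 (-0.047) or NC replicate 2 (-0.088, up to 0.091 without NC replicate 1), TGFB3-202 without OV-BRCA1 replicate 3 (-0.038, up to 0.52 without OV-BRCA1 replicate 1), and TGFBR2-202 without OV-BRCA1 replicate 1 (0.20), NC replicate 1 (0.06) or NC replicate 3 (0.10), against -0.93 without NC replicate 2. The cause was not tested. The replicate numbers did not pair the samples (correlations of same-numbered deviations -0.02 to 0.03). With them as a block in limma, 0 member transcripts were changed (7 at an unadjusted p below 0.05) among 249 of all transcripts, and 6 member genes were changed, TGFB2 being lost (limma adjusted p = 0.0785). Over all genes 5764 of 16321 were changed and 651 were DEGs, against 1280 DEGs with a pseudocount of 0.1. With the most abundant transcript 3291 of 15614 genes were changed, and the number tested in each list is not given here.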

Other observations

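In 4 genes of the lists, chosen after their values had been seen, 1 sample of a group lay far from the others of that group. FSTL3, an activin-binding relative of follistatin, gave 54.8, 136.7 and 146.6 FPKM with GV230-BRCA1, against 125.0, 121.5 and 113.5 FPKM with the empty plasmid, and no difference was found (log2 fold change -0.21, limma adjusted p = 0.683). ID2 stood at 31.8, 30.0 and 10.7 against 22.5, 20.6 and 59.9 FPKM, in contrast to the narrow ranges of ID1 and ID3. The type I receptors ACVR1B (6.54, 6.74 and 2.37 against 5.58, 5.18 and 5.99 FPKM) and ACVR1 (3.53, 7.73 and 8.01 against 5.65, 7.73 and 6.27 FPKM) had overlapping groups. Of response and processing genes that did not pass, CTGF, a classical TGF-beta target, lay between 52.1 and 55.8 FPKM over the 6 samples with overlapping groups. FURIN, the convertase that processes TGF-beta precursors, lay between 45.1 and 47.5 FPKM, also with overlapping groups. THBS1, a secreted activator of latent TGF-beta, was at 190.5 to 194.1 FPKM after GV230-BRCA1 and at 194.8 to 208.6 FPKM with the empty plasmid (log2 fold change -0.07, limma adjusted p = 0.259).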
